A study of Mus musculus with 9 samples.

Results

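The antioxidant and glutathione enzymes are the genes that remove superoxide and hydrogen peroxide, keep thiols reduced, make glutathione and couple it to reactive molecules. They were taken as 40 named genes, and all 40 were found among the 30128 genes of a left ventricular RNA table with 9 libraries in 3 groups of 3. The first group was db/db mice given AAV9_USP28, an adeno-associated virus of serotype 9 that delivers USP28 from the cTnT (cardiac troponin T) promoter and so acts mainly in cardiomyocytes (USP28 virus). The second was db/db mice given AAV9_null, a null virus of the same serotype (null virus). The third was Wild Type animals, labelled Control, for which no virus is given. db/db mice lack a working leptin receptor and become obese and diabetic, and both db/db groups carry a virus, so null virus against control sets genotype and virus together against neither. Strain, age, sex and time of collection are not given in the labels, nor whether the libraries of a group came from separate animals. What the p-values weigh is therefore the scatter among these libraries, which may be technical. USP28 is a deubiquitinating enzyme, and the stated purpose was to learn what its overexpression does in diabetic cardiomyopathy.

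Superoxide dismutases turn superoxide into hydrogen peroxide, which catalase, glutathione peroxidases and peroxiredoxins then reduce. Peroxiredoxins are recharged by thioredoxin and its reductase, and glutathione peroxidases by glutathione, which glutamate-cysteine ligase and glutathione synthetase build and glutathione reductase regenerates. The transcription factor NRF2, encoded by Nfe2l2, switches on many of these genes when it escapes KEAP1, its adaptor for degradation. Heart muscle is rich in mitochondria, a main source of superoxide, and diabetic hearts burn mostly fatty acids, part of them in peroxisomes, where catalase sits.

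Levels are RPKM, read counts divided by gene length and by library size, rescaled between libraries, and differences are log2 differences of scaled RPKM + 0.1. A gene passed when its adjusted p, Benjamini-Hochberg over all 14104 genes tested in limma, was under 0.05. Library depth was 35970332 to 56497662 reads, and members held between 43 reads (Gstt1) and 20731 reads (Cat) in a library. All 40 members cleared the filter on low values. Usp28 itself averaged 10.8 ± 0.805 scaled RPKM with USP28 virus, 8.47 ± 1.38 with null virus and 13.2 ± 0.62 in control (SD, n = 3), with null virus below control (log2 -0.64, adjusted p = 0.0085) and USP28 virus against null virus not passing (log2 0.36, adjusted p = 0.2). The sources used here do not say whether viral reads were counted under Usp28. The 10 cardiomyocyte markers, among them Myh6 and Tnnt2, were present in every library, with sums of 35800 to 40500 with USP28 virus, 33500 to 50800 with null virus and 39200 to 43200 in control. The sums hide differing genes. Against control 0 of the 10 were higher and 2 lower with null virus, and 0 higher and 1 lower with USP28 virus. Of all genes tested 12% and 6.24% were lower in these comparisons. Actc1 averaged 781 with USP28 virus, 566 with null virus and 1700 in control, and Tnnt2 5570, 7590 and 5770.

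A pair of libraries stood apart and touch several results. Over all genes tested the mean absolute log2 departure of null-virus replicate 1 from the mean of its group, itself included, was 0.334. Every other library had 0.144 to 0.214. In it, genes of at most 1550 bases had a median log2 difference of 0.33 from the mean of the other null-virus libraries, and genes of at least 5542 bases one of -0.24. Of the 40 members 28 were highest of the null-virus group in that library, against 42.6% of all genes tested, and 13 members were of at most 1550 bases and 2 of at least 5542. Results are therefore also given without it. A fit with the gene length trend removed, chosen after seeing the data, is described with the other alternatives. The part of this library in the results was otherwise not tested. USP28-virus replicate 1 carried atrial markers, with Myl7, the atrial myosin light chain, at 90.7 scaled RPKM, whereas it was listed at 0 in the other USP28-virus libraries. Myl4 (51), Sln (4.62) and Nppa (1300) were also highest of all libraries there, but Bmp10 was not (0.0406, against 0.0431 in replicate 2). To a smaller extent null-virus replicate 3 held Myl7 (4.7) and Myl4 (3.43), against at most 0.0852 and 0.602 in the rest of its group.

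**Figure D1:**
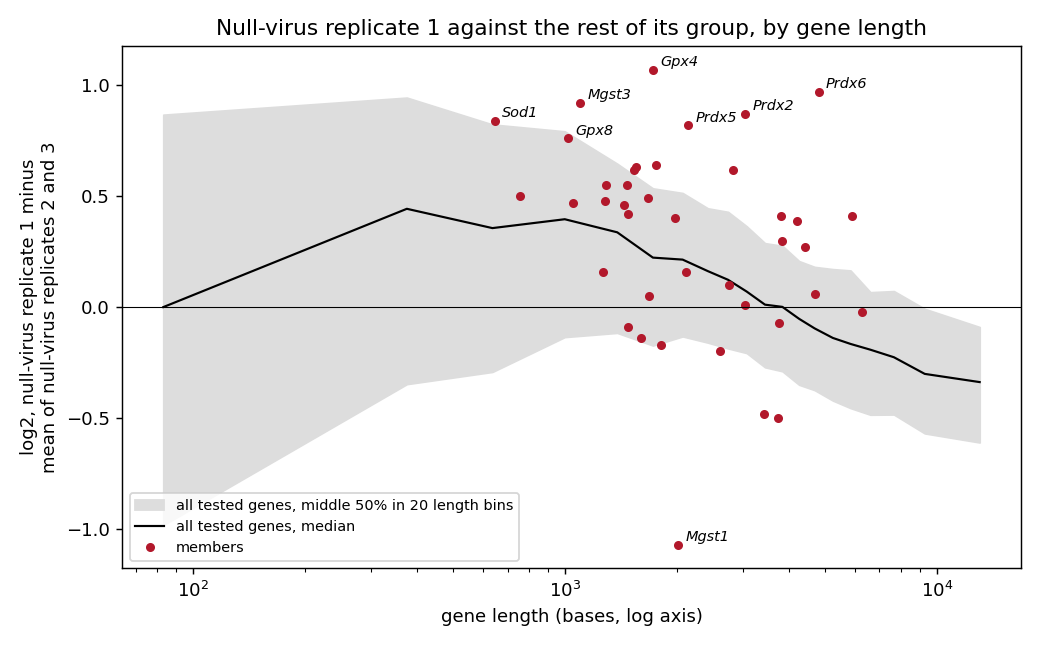
Null-virus replicate 1 minus the mean of null-virus replicates 2 and 3 (log2 of scaled RPKM + 0.1) against gene length in bases on a log axis, with the 40 members as points and all 14104 tested genes as a median line with a band for the middle 50%. Gpx4 (1.07), Prdx6 (0.97) and Mgst3 (0.92) lie highest among the members and Mgst1 (-1.07) lowest, while the median line runs downward over the lengths that hold most members.

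Sod1, the cytosolic copper-zinc superoxide dismutase, was the most abundant member per length in every group. It stood at 356 ± 22.7 scaled RPKM with USP28 virus, 592 ± 213 with null virus and 210 ± 18.9 in control (SD, n = 3). Cat had rank 2 in both db/db groups and rank 6 in control. Gpx4, the peroxidase that reduces lipid peroxides in membranes, had rank 3 in every group, at 98 ± 3.88 with USP28 virus, 136 ± 62.9 with null virus and 84.5 ± 1.36 in control. At the other end Gstt1, a theta class glutathione transferase, was the least abundant member in every group, at 1.07 ± 0.179 with USP28 virus, 0.949 ± 0.284 with null virus and 0.932 ± 0.256 in control. The glutathione synthesis genes were also low, with Gclc, Gclm, Gss and Gsr all under 4 scaled RPKM in every library.

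Db/db hearts with null virus had more catalase, cytosolic superoxide dismutase, plasma glutathione peroxidase and several glutathione transferases than control hearts, while no peroxiredoxin and not the mitochondrial dismutase passed. Of the 40 members 11 rose and 1 fell. Over all genes tested 22.4% passed, 10.4% higher and 12% lower, and the median log2 difference was 0.27 for the members and 0.01 for all genes. Without null-virus replicate 1 the counts were 14 higher and 4 lower, against 15.8% and 16.2% of all genes (31.9% in either direction), and the median of the members was 0.17. The groups did not overlap for 19 members, against 41.5% of all genes.

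**Figure D2:**
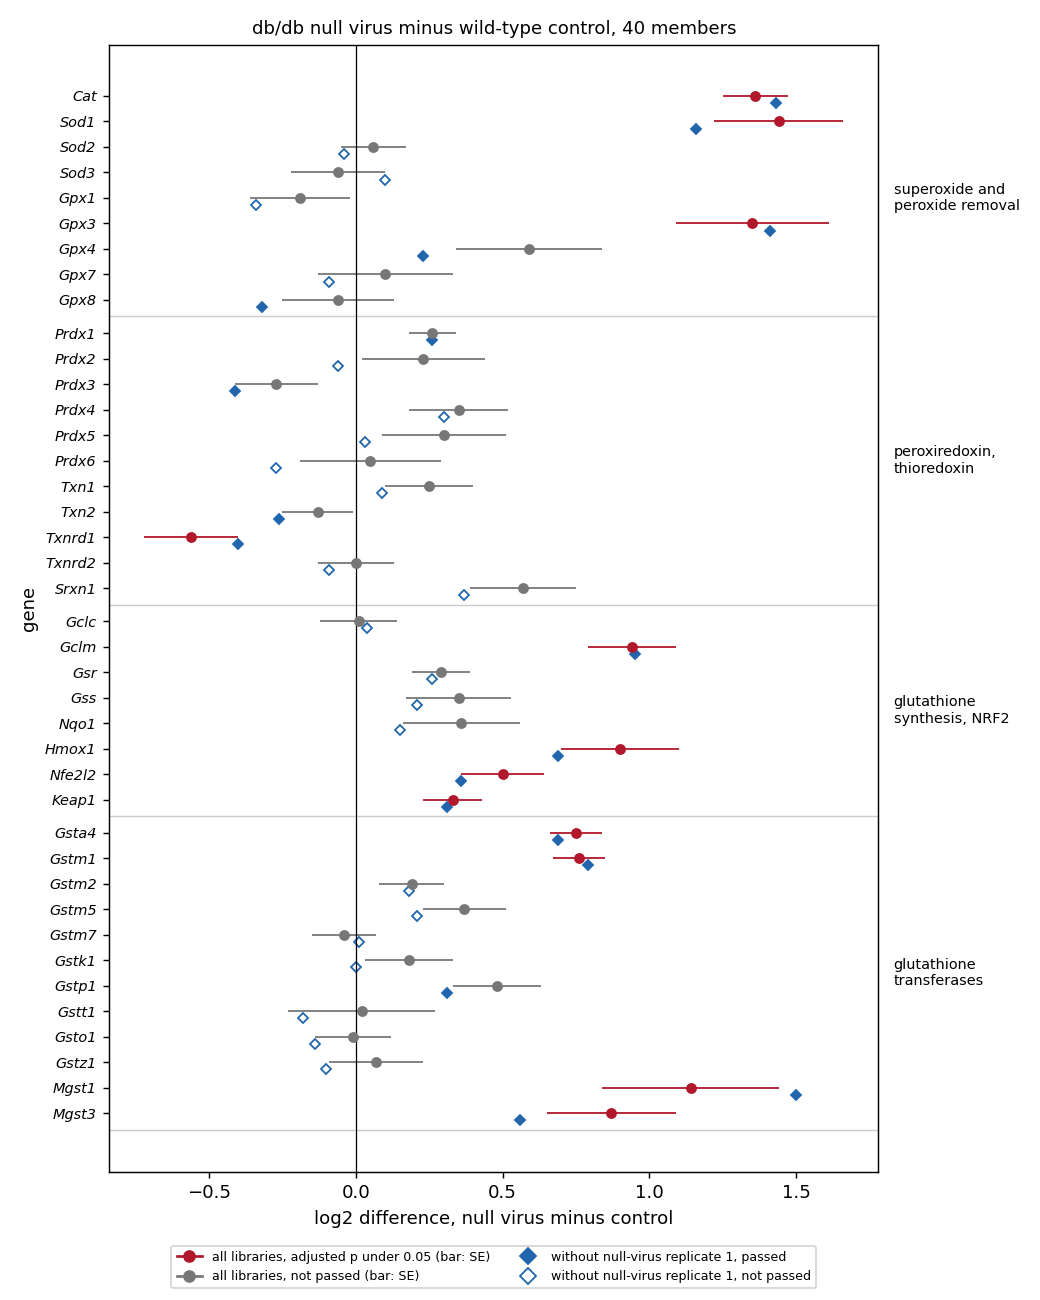
Log2 difference of db/db null virus minus wild-type control for the 40 members, grouped by role, with SE bars for all libraries and diamonds for the same fit without null-virus replicate 1. Sod1 (1.44), Cat (1.36) and Gpx3 (1.35) lie farthest to the right, and Txnrd1 (-0.56) farthest to the left.

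Among the enzymes that remove superoxide and peroxide, 3 of 9 rose and 0 fell, against 10.4% and 12% of all genes tested. Cat, which encodes catalase (chromosome 2, 103453849 to 103485160 on GRCm38), was at 148, 164 and 178 scaled RPKM with null virus, against 69.2, 58.9 and 62.3 in control. Every null-virus library lay above every control library, and the log2 difference was 1.36 (SE 0.11, adjusted p = 0.00042). Sod1 (chromosome 16, 90220742 to 90226322) was at 838, 484 and 454 with null virus, against 227, 190 and 212 in control. The groups were apart, replicate 1 was highest, and the log2 difference was 1.44 (SE 0.22, adjusted p = 0.0034), or 1.16 (SE 0.09, adjusted p = 0.00024) without that library. Gpx3 (chromosome 11, 54902453 to 54910377), a secreted glutathione peroxidase, was at 90.6, 91.8 and 114 with null virus, against 42.4, 40 and 33.2 in control (log2 1.35, SE 0.26, adjusted p = 0.0085). Its groups did not overlap either, and Cat, Sod1 and Gpx3 all passed under each of the 20 alternatives tried.

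The mitochondrial and extracellular dismutases did not pass. Sod2, the manganese enzyme of the mitochondrial matrix, was at 85.5, 69.7 and 69.6 with null virus, against 70.7, 69.9 and 74.5 in control (log2 0.06, SE 0.11, adjusted p = 0.73). Sod3, the extracellular enzyme, was at 6.44, 8.64 and 9.7 with null virus, against 7.69, 8.68 and 9.25 in control (log2 -0.06, SE 0.16, adjusted p = 0.8). In both genes the groups overlapped.

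The glutathione peroxidases differed among themselves. Gpx1, a cytosolic and mitochondrial form, was at 31.1, 22.7 and 22.3 with null virus, against 25.9, 33.7 and 26.6 in control (log2 -0.19, SE 0.17, adjusted p = 0.47). Gpx4 was at 208, 97.9 and 101 with null virus, against 86, 83.8 and 83.6 in control (log2 0.59, SE 0.25, adjusted p = 0.12). Replicate 1 was the high one. Without it Gpx4 passed at a smaller difference (log2 0.23, SE 0.06, adjusted p = 0.017), and 25.2% of its 100-base stretches also occur in other transcripts, among them the pseudogene Gpx4-ps2. Gpx7 and Gpx8, which act in the endoplasmic reticulum, were at log2 0.10 and -0.06 and did not pass. Gpx8 fell when null-virus replicate 1 was left out (log2 -0.32, adjusted p = 0.022).

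Of the 11 members of the peroxiredoxin and thioredoxin system 0 rose and 1 fell, against 10.4% and 12% of all genes. Txnrd1, the cytosolic thioredoxin reductase (chromosome 10, 82859206 to 82897724), was at 7.11, 9.44 and 10.5 with null virus, against 13.9, 12.9 and 12.8 in control. All null-virus values lay below all control values (log2 -0.56, SE 0.16, adjusted p = 0.036). The call was lost under 9 of the 20 alternatives, among them the omission of any single control library, of null-virus replicate 2 or of USP28-virus replicate 1 or 3, with adjusted p from 0.021 to 0.094 over all of them. Its mitochondrial counterpart Txnrd2 was at log2 0.00 (SE 0.13, adjusted p = 0.99).

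Prdx1, a cytosolic peroxiredoxin, was at 34, 33.3 and 34.3 with null virus, against 30.2, 26.3 and 28.5 in control. The groups were apart by a small margin, and the difference did not pass (log2 0.26, SE 0.08, adjusted p = 0.057), though it did without null-virus replicate 1 (log2 0.26, adjusted p = 0.027). Srxn1, sulfiredoxin, which repairs overoxidised peroxiredoxins, was at 8.07, 4.6 and 5.92 with null virus, against 3.76, 4.32 and 4.03 in control (log2 0.57, SE 0.18, adjusted p = 0.053). Prdx2, Prdx5 and Prdx6 each had 1 high value, in null-virus replicate 1. For Prdx6, the 1-cysteine peroxiredoxin, the null-virus values were 11.6, 5.9 and 5.86, against 6.71, 6.87 and 7.81 in control (log2 0.05, SE 0.24, adjusted p = 0.89). Prdx4, of the endoplasmic reticulum, and Txn1, cytosolic thioredoxin, were at log2 0.35 and 0.25 and did not pass.

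A pair of mitochondrial members passed once that library was left out. Prdx3, the mitochondrial peroxiredoxin, was at 42, 28.5 and 34.4 with null virus, against 42.2, 40.6 and 42.5 in control (log2 -0.27, SE 0.14, adjusted p = 0.2). Txn2, mitochondrial thioredoxin, was at 17.1, 13 and 13, against 14.7, 16 and 16.4 (log2 -0.13, adjusted p = 0.46). Without null-virus replicate 1 both fell, Prdx3 at log2 -0.41 (adjusted p = 0.023) and Txn2 at log2 -0.26 (adjusted p = 0.037).

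Within the glutathione synthesis genes and the NRF2 pathway 4 of 8 rose and 0 fell, against 10.4% and 12% of all genes. All 8 had a positive difference, from log2 0.01 to 0.94. Gclm, the modifier subunit of glutamate-cysteine ligase (chromosome 3, 122245557 to 122270732), was at 1.96, 1.98 and 2 with null virus, against 1.15, 1.02 and 0.81 in control. These null-virus values were close together and far from control (log2 0.94, SE 0.15, adjusted p = 0.0041), and the gene passed under all 20 alternatives. Of the 100-base stretches of Gclm 3.09% also occur in other transcripts, among them those of Ppia, and Gm17494 and Gm6061 overlap its span. Gclc, the catalytic subunit of the same enzyme, was at 2.15, 2.15 and 2.39 with null virus, against 2.29, 2.45 and 1.92 in control (log2 0.01, SE 0.13, adjusted p = 0.95). Its groups overlapped throughout.

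Hmox1, heme oxygenase 1 (chromosome 8, 75093621 to 75100589), was at 4.52, 3.13 and 2.61 with null virus, against 1.88, 1.93 and 1.43 in control (log2 0.90, SE 0.20, adjusted p = 0.015). It stayed past the threshold under 19 of 20 alternatives, the exception being the omission of control replicate 3 (adjusted p = 0.059). Nfe2l2 was at 13.6, 9.98 and 10.5 with null virus, against 7.22, 8.17 and 8.43 in control (log2 0.50, SE 0.14, adjusted p = 0.034). Keap1 was at 11.3, 12 and 9.71, against 8.67, 8.55 and 8.78 (log2 0.33, SE 0.10, adjusted p = 0.039). Both had groups that did not overlap, and both lost the call without any single control library, or without USP28-virus replicate 1 or 2, as well as with no filter on low values and with the 2 groups fitted alone, with adjusted p up to 0.1 for Nfe2l2 and 0.12 for Keap1. With replicate number as a block both lost it too. Keap1 also lost it with library totals alone and without null-virus replicate 2 or USP28-virus replicate 3. USP28-virus libraries enter here through the shared estimate of the spread.

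Nqo1, the quinone reductase often read as a mark of NRF2 activity, was at 23.3, 14.1 and 16 with null virus, against 16.7, 12.1 and 12.2 in control. The groups overlapped (log2 0.36, SE 0.20, adjusted p = 0.21). Gsr, glutathione reductase, was at 3.66, 3.55 and 3.28, against 2.66, 3.02 and 2.83 (log2 0.29, SE 0.10, adjusted p = 0.064). Gss, glutathione synthetase, was at log2 0.35 (adjusted p = 0.2).

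The core of the antioxidant response element, the DNA word that NRF2 and small MAF proteins bind, was looked for in the RefSeq promoters of the members (GRCm38.p6, 250 bases before to 50 after the start site), since several of its known target genes are members. The word TGACNNNGC was searched on both strands, and a match is a string of letters, not a shown binding site. It was found in 9 of the 34 members that have a promoter in the RefSeq table, against 14% of the 27025 genes there. Of the 10 members that passed in null virus against control and have a promoter, 5 held it, in the sequences printed here together with Prdx1, which did not pass. The RefSeq starts of Mgst1, Sod1 and Prdx1 lie inside the spans of these genes in the table, as does the printed Mgst1 stretch. The Nfe2l2 stretch also overlaps the antisense gene E030042O20Rik. Capitals mark the matched word, read 5′ to 3′ on the gene's strand, so a match on the opposite strand appears as its reverse complement.
Gclm (opposite strand, chr3:122245399-122245455): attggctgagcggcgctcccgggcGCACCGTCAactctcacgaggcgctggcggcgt
Txnrd1 (opposite strand, chr10:82859090-82859146): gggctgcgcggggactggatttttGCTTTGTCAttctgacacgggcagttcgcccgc
Mgst1 (opposite strand, chr6:138140447-138140503): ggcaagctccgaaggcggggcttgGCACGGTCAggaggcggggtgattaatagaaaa
Sod1 (opposite strand, chr16:90220682-90220738): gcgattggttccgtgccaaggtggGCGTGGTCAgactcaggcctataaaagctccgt
Nfe2l2 (gene's strand, chr2:75704871-75704913): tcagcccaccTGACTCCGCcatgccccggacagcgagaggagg
Prdx1 (opposite strand, chr4:116685442-116685498): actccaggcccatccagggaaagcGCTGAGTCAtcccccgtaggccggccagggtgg
The matches begin 134, 92, 56, 56, 240 and 133 bases before the start site in the order printed, and that of Prdx1 also holds the word of the transcription factor AP-1, TGACTCA. The genes with a match did not move together. Txnrd1 fell, whereas Gclm, Mgst1, Sod1 and Nfe2l2 rose. Gstm5, Gstm7 and Srxn1 hold the word too and did not pass in this comparison, while Nqo1 and Cat have none in their windows.

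Of the 12 glutathione transferases 4 rose and 0 fell, against 10.4% and 12% of all genes. Gsta4, the alpha class enzyme that detoxifies the lipid peroxidation product 4-hydroxynonenal (chromosome 9, 78182774 to 78209349), was at 108, 94.1 and 99.3 with null virus, against 63, 58.1 and 58.4 in control (log2 0.75, SE 0.09, adjusted p = 0.0017). Gstm1, of the mu class (chromosome 3, 108012255 to 108017973), was at 118, 119 and 133, against 70.7, 71.5 and 76.3 (log2 0.76, SE 0.09, adjusted p = 0.0015). In both the groups were well apart, and both passed under all 20 alternatives. The other mu class members Gstm2, Gstm5 and Gstm7, its neighbours on chromosome 3, were at log2 0.19, 0.37 and -0.04 and did not pass. Few 100-base stretches of these genes also occur in other transcripts, 5.86% of those of Gstm1 and 0% of those of Gstm7.

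Both membrane-bound transferases rose. Mgst1 (chromosome 6, 138140316 to 138156755) was at 8.62, 19.7 and 16.8 with null virus, against 8.32, 4.86 and 6.39 in control (log2 1.14, SE 0.30, adjusted p = 0.027). Null-virus replicate 1 was only just above the highest control, and without it the difference was larger (log2 1.50, SE 0.20, adjusted p = 0.0016). Mgst3 (chromosome 1, 167371966 to 167393841) was the reverse, at 108, 55.8 and 58.4 with null virus, against 38, 37.3 and 40.9 in control (log2 0.87, SE 0.22, adjusted p = 0.026). Without replicate 1 it was at log2 0.56 (SE 0.07, adjusted p = 0.00086). Mgst1 lost the call without control replicate 2 or 3 or null-virus replicate 2 or 3, and Mgst3 without any single control library. Both lost it too with no filter on low values and with the 2 groups fitted alone, and Mgst1 with library totals alone. In all, Mgst1 passed under 13 and Mgst3 under 15 of the 20 alternatives.

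The other transferases gave small differences. Gstp1, the pi class enzyme, was at 37.6, 27.4 and 25.8 with null virus, against 22.2, 19 and 23.4 in control (log2 0.48, SE 0.15, adjusted p = 0.055), and 25.1% of its 100-base stretches also occur in other transcripts, among them its near copy Gstp2. Gstp1 passed at a smaller difference without null-virus replicate 1 (log2 0.31, SE 0.10, adjusted p = 0.049). Gstk1, the kappa class enzyme of mitochondria and peroxisomes, was at log2 0.18, Gsto1 (omega) at -0.01, Gstz1 (zeta) at 0.07 and Gstt1 at 0.02, and none of these passed.

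USP28 virus against null virus in db/db hearts gave 1 passing member, Gsta4, which fell. Over all genes 0.553% passed, 0.213% lower. The members' differences were negative in 33 of 40, with a median log2 difference of -0.24 against 0.01 for all genes, and 13 members had an unadjusted p under 0.05, as had 2356 of the 14104 genes tested. The groups did not overlap for 15 members, against 23.4% of all genes. Without null-virus replicate 1 the count was 9 lower and 0 higher, against 3.69% lower and 3.08% higher of all genes (6.77% in all), and the median was -0.15. The same null-virus libraries serve here and in the comparison with control, so a high null-virus value moves both, in opposite directions.

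**Figure D3:**
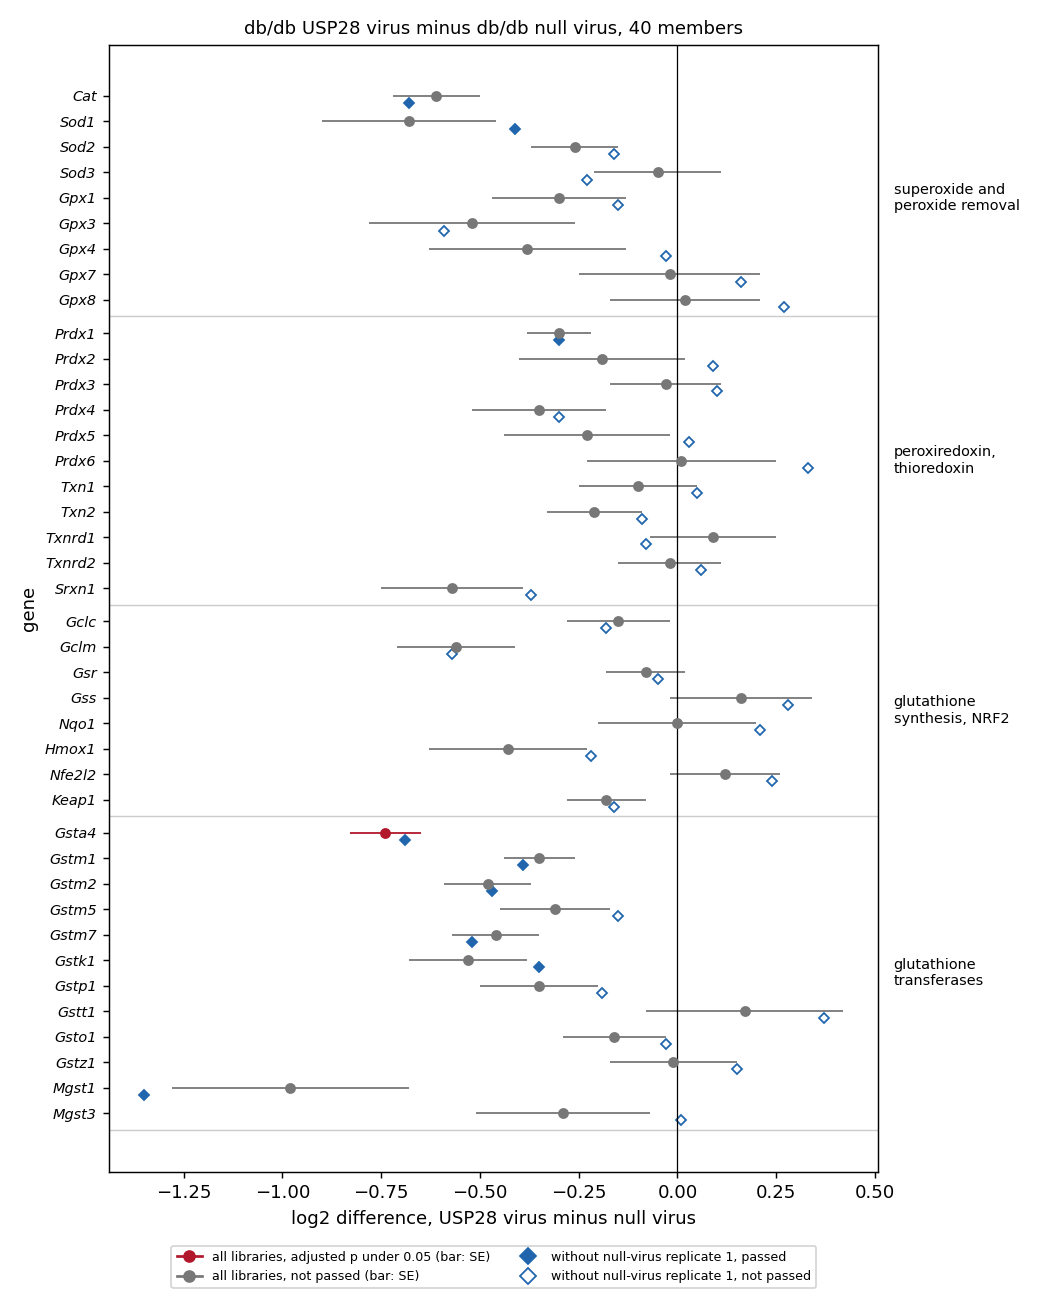
Log2 difference of db/db USP28 virus minus db/db null virus for the 40 members, grouped by role, with SE bars for all libraries and diamonds for the same fit without null-virus replicate 1. Mgst1 (-0.98), Gsta4 (-0.74) and Sod1 (-0.68) lie farthest to the left, and of these Gsta4 passed with all libraries.

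Gsta4 was at 59.5, 57.7 and 63.2 with USP28 virus, against 108, 94.1 and 99.3 with null virus. The groups were far apart (log2 -0.74, SE 0.09, adjusted p = 0.027), and the USP28-virus range overlapped that of control. The call held under 9 of 20 alternatives and was lost, at adjusted p up to 0.14, when any library other than null-virus replicate 1 was left out. Without replicate 1 it was at log2 -0.69 (SE 0.07, adjusted p = 0.0026).

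Cat was at 108, 103 and 109 with USP28 virus, against 148, 164 and 178 with null virus, again with no overlap. It missed the threshold (log2 -0.61, SE 0.11, adjusted p = 0.051), and fell without null-virus replicate 1 (log2 -0.68, SE 0.08, adjusted p = 0.0042). Sod1 was at 366, 329 and 371, against 838, 484 and 454 (log2 -0.68, SE 0.22, adjusted p = 0.17). Without null-virus replicate 1 it fell at a smaller difference (log2 -0.41, adjusted p = 0.036). Gpx3 was at 109, 56.4 and 52 with USP28 virus, against 90.6, 91.8 and 114 with null virus (log2 -0.52, SE 0.26, adjusted p = 0.34). The high value is that of USP28-virus replicate 1, the library with the most of the atrial marker Myl7. Without that library Gpx3 was at log2 -0.86 (SE 0.15, adjusted p = 0.13) against null virus and at log2 0.50 (SE 0.15, adjusted p = 0.13) against control, where all libraries gave log2 0.83 (SE 0.26, adjusted p = 0.071).

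The remaining calls in the fit without null-virus replicate 1 were 5 further transferases and Prdx1. Mgst1 was at 6.87, 6.73 and 7.83 with USP28 virus, against 8.62, 19.7 and 16.8 with null virus (log2 -0.98, SE 0.30, adjusted p = 0.16), and at log2 -1.35 (SE 0.20, adjusted p = 0.011) without replicate 1. Gstm7 was at 6.43, 7.34 and 6.11, against 8.58, 10.1 and 8.83 (log2 -0.46, SE 0.11, adjusted p = 0.09). Gstm2 was at 41.7, 48.3 and 42.7, against 63.1, 60.9 and 60.9 (log2 -0.48, SE 0.11, adjusted p = 0.086). In Gstm7 and Gstm2 the groups did not overlap, and without replicate 1 both fell, at log2 -0.52 (adjusted p = 0.024) and -0.47 (adjusted p = 0.032). Gstm1 fell there too, at log2 -0.39 (adjusted p = 0.018), as did Prdx1 (log2 -0.30, adjusted p = 0.042) and Gstk1 (log2 -0.35, adjusted p = 0.05 as rounded).

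The NRF2 pathway members gave no call here with or without that library. Gclm was at 1.53, 1.19 and 1.23 with USP28 virus, against 1.96, 1.98 and 2 with null virus (log2 -0.56, SE 0.15, adjusted p = 0.13), with no overlap between groups. Hmox1 was at 2.69, 2.28 and 2.41, against 4.52, 3.13 and 2.61 (log2 -0.43, SE 0.20, adjusted p = 0.32). Nfe2l2 was at 11.5, 11.4 and 13.8, against 13.6, 9.98 and 10.5 (log2 0.12, SE 0.14, adjusted p = 0.69). Nqo1 was at log2 0.00 (SE 0.20, adjusted p = 0.99), Txnrd1 at 0.09 (SE 0.16, adjusted p = 0.8) and Keap1 at -0.18 (SE 0.10, adjusted p = 0.37).

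**Figure D4:**
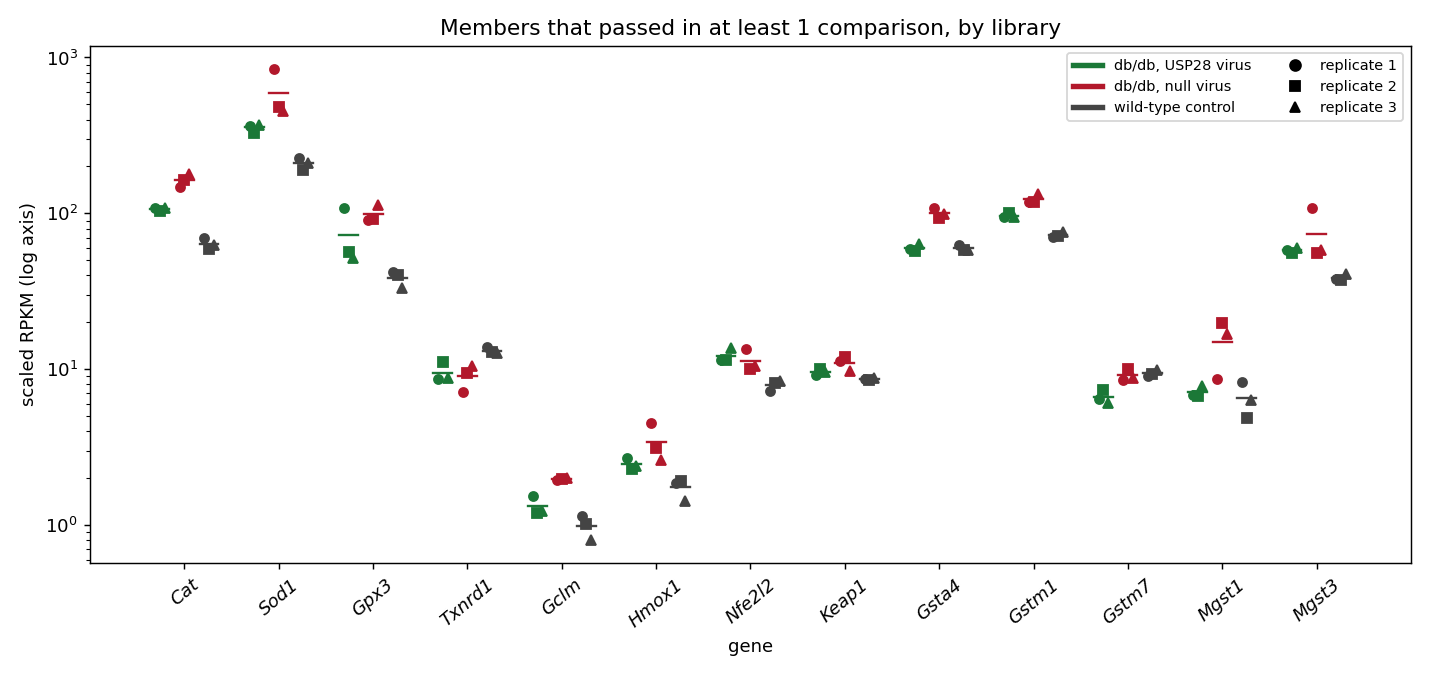
Scaled RPKM on a log axis of the 13 members that passed in at least 1 comparison, by library, with db/db USP28 virus left, db/db null virus in the middle and wild-type control right for each gene. Symbols mark the replicate and lines the group means. Cat and Gstm1 lie between the other groups with USP28 virus, Gsta4 lies at 57.7 to 63.2 with USP28 virus against 58.1 to 63 in control, and null-virus replicate 1 is far above its group for Sod1 and Mgst3 and far below it for Mgst1.

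Set against control, the db/db hearts with USP28 virus had 3 members higher and 1 lower, against 5.69% and 6.24% of all genes, with a member median of log2 0.06 and 0.01 for all genes. The groups did not overlap for 19 members, against 45.8% of all genes. Cat was at 107 ± 3.25 with USP28 virus and 63.4 ± 5.25 in control (SD, n = 3 each), with every value apart (log2 0.76, SE 0.11, adjusted p = 0.0053), and passed under all 20 alternatives. Nfe2l2 was at 12.2 ± 1.34, against 7.94 ± 0.639 (log2 0.62, SE 0.14, adjusted p = 0.025). Gstm1 was at 96.8 ± 2.76, against 72.8 ± 3.02 (log2 0.41, SE 0.09, adjusted p = 0.024). Gstm7 was the member that fell, at 6.63 ± 0.64 with USP28 virus and 9.41 ± 0.484 in control (log2 -0.50, SE 0.11, adjusted p = 0.02).

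Several members missed the threshold in that comparison although their groups did not overlap. Sod1 was at 366, 329 and 371 with USP28 virus, against 227, 190 and 212 in control (log2 0.76, SE 0.22, adjusted p = 0.055). Mgst3 was at 58.2, 55.4 and 60.2, against 38, 37.3 and 40.9 (log2 0.58, SE 0.22, adjusted p = 0.13). Both passed without null-virus replicate 1, which enters this comparison only through the shared spread, the scaling and the filter, at adjusted p = 0.00082 and 0.00072. In that fit 8 members were higher and 8 lower, against 14% and 15.4% of all genes, and those lower included Gpx1 (log2 -0.49, adjusted p = 0.027), Sod2 (log2 -0.21, adjusted p = 0.034), Txn2 (log2 -0.35, adjusted p = 0.0083) and Gstk1 (log2 -0.35, adjusted p = 0.011). Nfe2l2 lost its call when any single control or USP28-virus library was left out and with no filter on low values, and so did Gstm1. Gstm1 also lost it with library totals alone and with the length trend removed. Gstm7 lost its call without control replicate 2 or 3 or USP28-virus replicate 1 or 3, and with library totals alone.

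The wider pathway was followed in lists of related genes. Over all genes tested 10.4% rose and 12% fell with null virus against control. With USP28 virus 0.34% rose and 0.213% fell against null virus, and 5.69% rose and 6.24% fell against control. Without null-virus replicate 1 these shares were 15.8% and 16.2%, 3.08% and 3.69%, and 14% and 15.4% in the same order. Of 15 genes that supply NADPH, the reductant of both the glutathione and the thioredoxin system, 1 rose and 1 fell with null virus against control. G6pdx, which opens the pentose phosphate pathway, rose (log2 0.43, adjusted p = 0.039) and Mthfd1, a cytosolic folate enzyme, fell (log2 -0.48, adjusted p = 0.0098). With USP28 virus 0 of the 15 passed against null virus, and against control Mthfd1 alone did (log2 -0.40, adjusted p = 0.03). Leaving out null-virus replicate 1, the list had 3 higher and 2 lower with null virus against control, 0 higher and 2 lower with USP28 virus against null virus, and 2 higher and 1 lower with USP28 virus against control.

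Of 17 tested genes of glutathione precursor transport, turnover and glutaredoxins 4 rose and 1 fell with null virus against control. They included Slc25a39, which brings glutathione into mitochondria (log2 0.64, adjusted p = 0.012), and Oplah, which opens 5-oxoproline (log2 0.56, adjusted p = 0.035). Ggt5, a gamma-glutamyl transferase family enzyme, was another (log2 0.84, adjusted p = 0.039). It was at 0.8, 0.568 and 0.595 scaled RPKM with null virus, against 0.261, 0.432 and 0.281 in control. Ggt5 cleared the filter of RPKM 0.5 only through db/db libraries, where it is high, so its calls carry little weight. Of these genes 0 passed with USP28 virus against null virus, and 2 were higher and 2 lower against control, led by Ggt5 (log2 0.93, adjusted p = 0.039) and Chac2, which degrades glutathione (log2 -0.84, adjusted p = 0.012). In the fit that leaves out null-virus replicate 1 there were 4 higher and 2 lower with null virus against control, 0 higher and 3 lower with USP28 virus against null virus, and 3 higher and 3 lower with USP28 virus against control.

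Of 8 tested glutathione transferases and related enzymes outside the members 3 rose and 0 fell with null virus against control. They were Gsta3 (log2 1.47, adjusted p = 0.0019), Gsta1 (log2 1.14, adjusted p = 0.0094) and Gstt2 (log2 0.50, adjusted p = 0.044). Gstt2 was at 3.87, 2.9 and 3.23 scaled RPKM with USP28 virus, against 2.06, 1.78 and 1.62 with null virus and 1.42, 1.25 and 1.1 in control. It was highest with USP28 virus, at log2 0.84 over null virus (adjusted p = 0.056) and log2 1.33 over control (adjusted p = 0.003). Of the 8 genes, the fit without null-virus replicate 1 had 2 higher and 1 lower with null virus against control, 1 higher and 0 lower with USP28 virus against null virus, and 2 higher and 1 lower with USP28 virus against control.

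A further list of NRF2 targets and regulators also holds other redox genes, so its counts do not measure NRF2 activity. Of its 21 tested genes 9 rose and 1 fell with null virus against control. Among them were Ephx1, microsomal epoxide hydrolase (log2 1.54, adjusted p = 0.0044), and Maff, a small MAF partner of NRF2 (log2 1.18, adjusted p = 0.0029). Txnip, the inhibitor of thioredoxin and not taken here as an NRF2 target, also rose (log2 1.04, adjusted p = 0.0067). Maff was at 4.09, 3.49 and 4.08 with USP28 virus, against 7.11, 8.13 and 9.8 with null virus, and was the 1 gene of the list to pass between them (log2 -1.07, adjusted p = 0.041). That call was lost with the replicate block, with the 2 groups fitted alone and without any single USP28-virus library. It was lost too without control replicate 2 or null-virus replicate 2 or 3, since 0 genes passed between these groups in any such fit. Against control 3 rose with USP28 virus, Ephx1 (log2 1.29, adjusted p = 0.016), Mafk, another small MAF protein (log2 0.77, adjusted p = 0.0053), and Aldh2, mitochondrial aldehyde dehydrogenase (log2 0.33, adjusted p = 0.049). With null-virus replicate 1 left out the list had 10 higher and 1 lower with null virus against control, 0 higher and 3 lower with USP28 virus against null virus, and 6 higher and 2 lower with USP28 virus against control.

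Markers of other cells moved between the groups as well, and in tissue RNA fewer cells of a type and less RNA per cell cannot be told apart. The summed level of 9 endothelial markers was 103 to 136 with null virus, against 84.2 to 98.4 in control, with 4 of 9 higher, and that of 9 macrophage markers was 29.4 to 35.8, against 37.4 to 47, with 3 of 9 lower. Those of 9 fibroblast markers summed to 285 to 324, against 217 to 244, with 1 higher and 5 lower. Those of 5 neutrophil markers summed to 2.31 to 3.7, against 10.1 to 17.8, and these sums were mostly S100a9. S100a9 averaged 2.29 with null virus and 12.4 in control, and was the 1 marker of the list tested, where it was lower. The other neutrophil markers each averaged under 0.5 in both groups, with Retnlg at 0.229 and 0.242. Over all genes 10.4% were higher and 12% lower with null virus against control. Red blood cell markers, whose cells are rich in Cat, Prdx2 and Gpx1, summed to 128 to 198 with null virus and to 138 to 526 in control, and 0 of the 5 tested passed. With USP28 virus the sums were 114 to 128 for endothelial, 27.9 to 34.9 for macrophage, 300 to 340 for fibroblast, 0.638 to 2.09 for neutrophil and 108 to 223 for red blood cell markers. Adipocyte markers, among them Adipoq and Plin1, summed to at most 0.44 in any library. The part of these cells in the members' differences was not tested.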

How the data were processed

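Gene-level RNA levels of 9 mouse left ventricle libraries were analysed, 3 per group as labelled. Per the labels' protocols, polyadenylated RNA was made into directional libraries read from both ends. The submitters' processing notes name HISAT2 and DESeq2, with no role, and the human build GRCh38. The deposited table is mouse, and 25445 of its 30128 genes, 34 of the 40 members among them, have the spans of GENCODE M21 on GRCm38. No read counter or strand rule is named in the sources used here, so reads of overlapping genes such as Sod1 and Scaf4, or Keap1 and its antisense partner, may be mixed.

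The deposited values are RPKM, as the authors computed them. Value times length was a whole multiple of 1 step in each library for 99.9834% of values above 0, within 0.01 reads, and for all 360 member values, which gave the depths.

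RPKM were rescaled by a trimmed mean of M values (30% of ratios, 5% of levels, unweighted) and tested as log2(value + 0.1) in limma 3.58.1 under R 4.3.3, the prior being trended and robust. All 9 libraries entered 1 fit, over genes that reached an RPKM of 0.5 in 3 libraries or more. The fit was also run on simulated reads with known changes. These had the same spread in every library and no departing library such as null-virus replicate 1, so they cannot show its effect on the calls. Members that passed, and 11 defining ones, were described in full, and of other lists up to 3 passing genes with the largest differences. Some genes of those lists are counted but not reported here by name. Members and lists were chosen with earlier results of these data known. The alternatives were other scalings, filters, pseudocounts and fits, limma voom on the recovered reads, the replicate block and each library left out. The removal of the gene length trend (spline of 4 degrees of freedom) was chosen after seeing the data. No pair of replicates held identical values. Shared 100-base stretches were counted in GENCODE M21 transcripts. Figures used matplotlib 3.10.9.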

Additional observations from a re-analysis of the deposited data

How the results depend on the processing

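With all libraries 12 members passed with null virus against control, 1 with USP28 virus against null virus and 4 with USP28 virus against control. Over all genes the counts were 3154, 78 and 1682. Of 2400 member values under the 20 alternatives, 2265 kept their direction where called and their side of the threshold, 73 lost the call, 62 gained it and 0 reversed. Most of the 2400 belong to members not called with all libraries. Only the 12, 1 and 4 calls could be lost, so the 73 are not a share of 2400. The cause of the changes was not tested.

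With library totals alone, 31 genes passed for USP28 virus against null virus and 921 for USP28 virus against control. Without a filter the members passing were 7 with null virus against control, 0 with USP28 virus against null virus and 2 with USP28 virus against control, of 2066, 10 and 944 genes. With a filter of RPKM 1, a pseudocount of 1 or mitochondrial genes left out, 2 members passed for USP28 virus against null virus, of 89, 96 and 79 genes. By limma voom on the recovered reads 2 members of 194 genes passed there, and 7 members of 2315 genes for USP28 virus against control. With 2 groups alone in each fit, 7 members of 1693 genes passed with null virus against control, 0 of 0 with USP28 virus against null virus and 14 of 3875 with USP28 virus against control. The removal of the length trend, chosen after seeing the data, gave 14, 1 and 5 members of 3357, 77 and 1988 genes. With null virus against control it put Sod1 at log2 1.29 and Mgst3 at 0.73. Srxn1 (adjusted p = 0.048) and Prdx3 (log2 -0.39, adjusted p = 0.042) passed there. With USP28 virus against control Gstm1 lost its call (adjusted p = 0.052), while Sod1 (adjusted p = 0.024) and Gpx1 (adjusted p = 0.05 as rounded) passed.

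Replicate numbers did not pair the libraries (correlations of same-numbered libraries -0.03 to 0.06). With the replicate block 11 members of 2783 genes passed with null virus against control. Nfe2l2 (adjusted p = 0.057) and Keap1 (adjusted p = 0.059) no longer passed and Gstp1 (adjusted p = 0.05 as rounded) did. The block gave 0 members with USP28 virus against null virus, where 0 genes passed in all. With USP28 virus against control it gave 4 members of 1286 genes.

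Leaving out 1 library gave 6 to 18 members of 1441 to 4473 genes with null virus against control, 0 to 9 of 0 to 948 with USP28 virus against null virus and 1 to 16 of 368 to 4121 with USP28 virus against control. The highest counts were those without null-virus replicate 1. With null virus against control, 7 members of 1441 genes passed without control replicate 2 and 6 of 1473 without control replicate 3. With USP28 virus against null virus, 0 members passed without any one of the other 8 libraries, where 0 to 19 genes passed in all. With USP28 virus against control, 2 members passed without control replicate 1 (1038 genes) or USP28-virus replicate 2 (795 genes). There 1 member passed without control replicate 2 (487 genes) or 3 (444 genes) or USP28-virus replicate 1 (368 genes) or 3 (583 genes). A fit that leaves a group of 2 takes its spread from all groups. Members with few reads, such as Gstt1, have larger errors, and 3 libraries per group limit every call.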

Other observations

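Genes that make oxidants and genes of the peroxisome, where catalase sits, were also followed. Of 9 tested oxidant sources 3 rose and 0 fell with null virus against control, beside 10.4% and 12% of all genes. Xdh, xanthine dehydrogenase, was at 30, 28.7 and 29.6 scaled RPKM with USP28 virus, against 23.9, 32.5 and 34 with null virus and 12.5, 14.4 and 12.2 in control, so both db/db groups lay above control (log2 1.18, adjusted p = 0.0033, with USP28 virus and log2 1.19, adjusted p = 0.0013, with null virus). USP28 virus against null virus gave log2 -0.02 (SE 0.14, adjusted p = 0.96) for it. Aox1, aldehyde oxidase, also rose with null virus (log2 0.93, adjusted p = 0.03).

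Of 20 peroxisome assembly genes 3 rose and 1 fell with null virus against control, beside 10.4% and 12% of all genes. The median log2 difference of the 20 was -0.12, against 0.01 for all genes. Pex11a, a peroxisome division factor, was at 7.22, 8.26 and 7.97 with null virus, against 4.2, 3.35 and 3.55 in control (log2 1.06, adjusted p = 0.00088), while Pex19, an import receptor, fell (log2 -0.52, adjusted p = 0.011). With USP28 virus against control Pex11a was higher (log2 0.68, adjusted p = 0.0078). Selenoproteins and methionine sulfoxide reductases had 4 of 18 tested genes higher and 2 lower with null virus against control, led by Selenoo (log2 0.75, adjusted p = 0.0057), Sephs2, which makes the selenium donor (log2 -0.74, adjusted p = 0.019), and Selenow (log2 0.67, adjusted p = 0.011). Of the peroxisome and selenoprotein lists 0 genes passed in limma with USP28 virus against null virus, where 5 of 20 and 4 of 18 genes had an unadjusted p under 0.05, as had 2356 of all 14104 genes tested. Without null-virus replicate 1 that comparison gave 0 higher and 2 lower in each of these lists, and 0 higher and 1 lower among the oxidant sources.

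Values that were not whole reads within the tolerance occurred in 12 genes of the deposited data, and none of them is a member.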
